A study of Homo sapiens with 10 samples.

Results

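Chromosome 17 was described here through every H4R3me2s peak that the authors' files place on it, on both arms. H4R3me2s is histone H4 with arginine 3 dimethylated symmetrically, measured by chromatin immunoprecipitation and sequencing (ChIP-seq). The members were the 1458 chromosome 17 peaks among 67753 peaks in 9 libraries called against Input, and 1923 among 63273 peaks in 4 pooled lists, 3381 of 131026 in all. A peak belonged to the short arm (17p) when it ended before position 25100000 of GRCh38, and to the long arm (17q) when it started after it. The libraries held 248 peaks on 17p and 1210 on 17q, the pooled lists 149 and 1774, and 0 peaks crossed the boundary. No signal value entered this choice.

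The cells were SH-SY5Y, established from a human neuroblastoma and able to acquire neuron-like properties on differentiation, kept in medium with 10% fetal calf serum (FCS) and 300 µg/ml zeocin. The 3 Naive libraries came from cells without treatment. The 3 BDNF libraries came from cells differentiated by 6 days of 10 µM retinoic acid with 3% FCS, followed by 4 days of the neurotrophin BDNF at 50 ng/ml in serum-free medium. The 3 BDNF+Dox libraries came from cells that also received 1 µg/ml doxycycline for 3 days to switch on α-synuclein through a Tet-on system. All 9 libraries shared 1 Input library, and no group with doxycycline but without induction of α-synuclein was analysed here, so drug and protein cannot be told apart. The labels do not say whether replicates were separate cultures, so each p-value below reflects how far these samples spread, and that spread may be technical.

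PRMT5 is the arginine methyltransferase best known for writing this mark, which is mostly described with gene repression. Chromosome 17 carries a gene-rich short arm and a long arm with NF1, MAPT, the HOXB cluster and PRKCA. Gain of the distal long arm is a frequent change in neuroblastoma, and SH-SY5Y has been described as carrying it. Copy number was not measured here.

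Few peaks reached the DNA around a gene's start. The RefSeq table for GRCh38 held 1639 promoter windows of 300 bases on chromosome 17, each from 250 bases before to 50 after a start, and it covered 824 of 1169 protein-coding genes by symbol. Peaks from any list overlapped 4 of the windows (0.244%), against 0.481% of 34961 windows over the chromosomes for which the table holds windows. They are printed 5′ to 3′ on the plus strand because these are the windows that a peak reached, with the covered bases in capitals. The first belongs to TLK2, a kinase that acts in chromatin assembly, at chr17:62480518-62480817. The second belongs to EFCAB3, an EF-hand protein gene, at chr17:62369968-62370267. The other two belong to long non-coding RNAs, LOC107985034 at chr17:75136000-75136299 and LOC105371867 at chr17:65879075-65879374.
TLK2: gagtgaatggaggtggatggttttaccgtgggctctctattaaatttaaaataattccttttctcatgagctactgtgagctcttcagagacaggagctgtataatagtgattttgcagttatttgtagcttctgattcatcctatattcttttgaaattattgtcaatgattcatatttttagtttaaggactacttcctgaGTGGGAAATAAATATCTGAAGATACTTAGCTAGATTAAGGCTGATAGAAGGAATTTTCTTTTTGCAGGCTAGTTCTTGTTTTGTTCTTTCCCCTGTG
EFCAB3: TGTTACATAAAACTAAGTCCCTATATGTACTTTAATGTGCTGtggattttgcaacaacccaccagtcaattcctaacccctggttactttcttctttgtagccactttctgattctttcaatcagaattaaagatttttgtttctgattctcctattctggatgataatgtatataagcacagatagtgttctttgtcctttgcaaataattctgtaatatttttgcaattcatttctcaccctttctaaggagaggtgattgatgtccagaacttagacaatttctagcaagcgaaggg
LOC107985034: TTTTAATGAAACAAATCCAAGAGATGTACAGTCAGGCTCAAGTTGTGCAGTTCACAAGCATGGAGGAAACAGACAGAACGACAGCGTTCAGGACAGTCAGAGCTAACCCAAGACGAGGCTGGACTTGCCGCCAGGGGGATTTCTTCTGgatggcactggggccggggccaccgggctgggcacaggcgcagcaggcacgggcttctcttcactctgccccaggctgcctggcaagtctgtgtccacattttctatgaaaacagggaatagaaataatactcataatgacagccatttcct
LOC105371867: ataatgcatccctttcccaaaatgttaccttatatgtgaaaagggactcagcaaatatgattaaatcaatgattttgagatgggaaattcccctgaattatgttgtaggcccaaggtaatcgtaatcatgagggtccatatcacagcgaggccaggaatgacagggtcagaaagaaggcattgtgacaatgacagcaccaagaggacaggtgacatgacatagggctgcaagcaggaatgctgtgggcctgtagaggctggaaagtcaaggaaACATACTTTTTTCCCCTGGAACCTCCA

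The TLK2 window was overlapped over 97 bases by a pooled BDNF+Dox over BDNF peak at chr17:62480721-62480883, with a fold of 2.51 and a q of 1 in the authors' deposited table of narrow peaks. The EFCAB3 window was overlapped over 42 bases in the deposited broad list over BDNF alone. The LOC107985034 window was overlapped in both deposited broad lists, over 148 bases in the list over BDNF. The LOC105371867 window was the one window overlapped in a library, over 27 bases in BDNF replicate 2. GC content was 34.7% in TLK2, 35% in EFCAB3, 52.3% in LOC107985034 and 44.3% in LOC105371867, all below the median of 62% over the 1639 windows. The 4 windows held between 1 and 8 CpG dinucleotides, against a median of 19. The letters GGGCGG (GC box) were in 52.4% of all windows on either strand and CCAAT in 34.6%, and neither was in any of the 4.

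The number of chromosome 17 peaks varied between libraries within each group. It was 230, 132 and 152 in the Naive libraries, 139, 110 and 164 in BDNF, and 211, 153 and 167 in BDNF+Dox. The groups overlapped, with 171 ± 51.8 (SD, n = 3), 138 ± 27.0 and 177 ± 30.3 peaks. The number was 1.29-fold higher in BDNF+Dox than in BDNF, which did not pass the exact permutation test of the 3 groups (two-sided p = 0.396, p = 0.492 after Benjamini-Hochberg adjustment over 10 tests). The library with the most peaks on chromosome 17, Naive replicate 1, also had the most on chromosomes 1 to 22 and X, 12135 against between 4505 and 10807 in the others. From here on all shares are of the peaks on these chromosomes, which leaves out 452 library peaks and 150 pooled peaks placed elsewhere. As a share of each library, chromosome 17 took 1.90%, 2.26% and 1.94% in Naive, 2.28%, 2.44% and 2.39% in BDNF, and 1.95%, 2.21% and 2.65% in BDNF+Dox. The BDNF libraries lay above the Naive ones in this share, and the BDNF+Dox libraries overlapped both (exact permutation p = 0.296, adjusted p = 0.492). The libraries kept between 17164402 and 18928589 reads each and the Input 17074000, so depth differed little. A q of 0.05 or less in the authors' own scale was reached by 6 of the 1458 peaks (0.412%), against 0.29% over all chromosomes, 3 of them in BDNF replicate 1, 2 in Naive replicate 1 and 1 in BDNF+Dox replicate 2.

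The long arm held more peaks per megabase than the short arm in 9 of 9 libraries. Densities, counted per Mb of sequence that holds a gene or a peak, were 1.57, 0.957 and 1.43 peaks per Mb on 17p in Naive, 1.22, 0.696 and 0.957 in BDNF, and 1.83, 1.13 and 1.00 in BDNF+Dox. On 17q they were 3.34, 1.90 and 2.05 in Naive, 1.91, 1.62 and 2.45 in BDNF, and 2.91, 2.19 and 2.48 in BDNF+Dox. The 17q to 17p ratio was 1.96-fold on average (log2 0.97 ± 0.30, SD, n = 9; exact sign-flip permutation test, two-sided p = 0.00391, the smallest it allows; adjusted p = 0.0130). Against all other chromosomes 17p was poor in peaks, at 0.465-fold (log2 -1.11 ± 0.19, lower in 9 of 9 libraries, exact permutation p = 0.00391, adjusted p = 0.0130). For 17q the log2 ratio to other chromosomes was -0.13 ± 0.21, lower in 6 of 9 libraries, and did not pass (exact permutation p = 0.109, adjusted p = 0.219). The ratio of the arms did not differ detectably between the 3 groups (exact permutation p = 0.739, adjusted p = 0.739). The 9 libraries share 1 Input, and these p-values do not cover its error. When 17q was taken only up to 45 Mb, the log2 ratio to 17p was -0.24 and no longer passed (exact permutation adjusted p = 0.215).

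The surplus of the long arm lay in its middle. From 45 to 75 Mb, a stretch whose limits were chosen after the values were seen and which is therefore described without a test, the libraries held 168, 75 and 89 peaks in Naive, 85, 72 and 110 in BDNF, and 116, 93 and 121 in BDNF+Dox, or 3.44 ± 0.995 peaks per Mb (SD, n = 9). From 25 to 45 Mb they held between 0.526 and 2.05 peaks per Mb. The stretch from 75 Mb to the end held between 0.667 and 1.56. The middle exceeded the proximal part by 1.88-fold to 5.89-fold (median 3.87) in single libraries, and 17p by 2.07-fold to 4.03-fold (median 2.74). All 9 libraries showed both orders. Against other chromosomes the middle was 1.03-fold to 1.85-fold as dense (median 1.33).

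**Figure D1:**
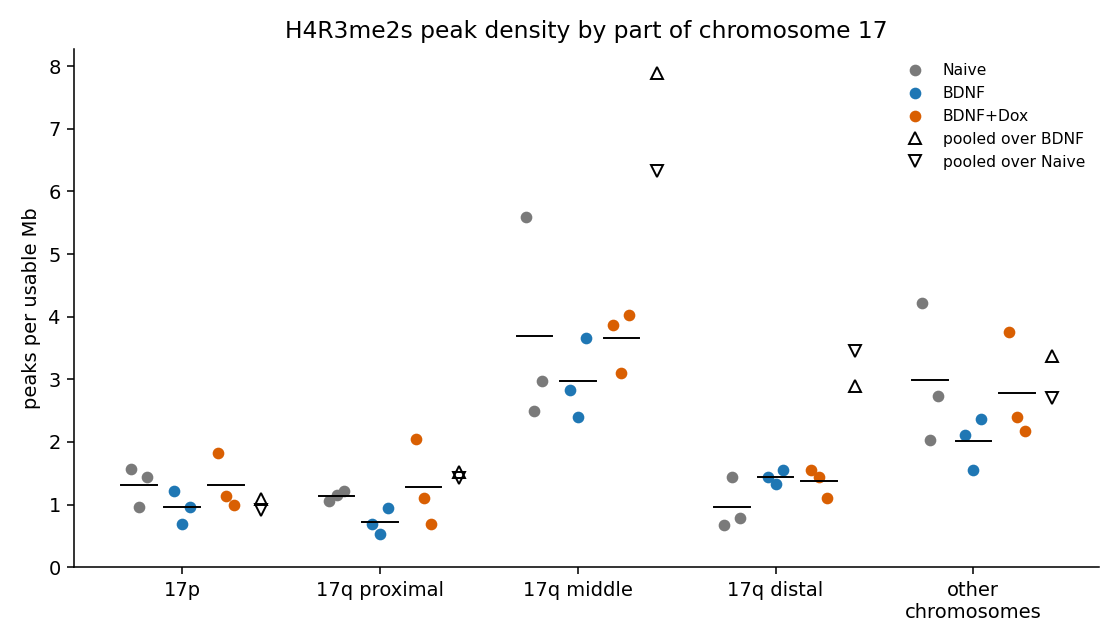
Peaks per usable Mb in 5 parts of the genome, with one point per library (Naive grey, BDNF blue, BDNF+Dox orange), black bars for group means of 3 libraries and open triangles for the pooled narrow lists. Proximal, middle and distal 17q are 25 to 45 Mb, 45 to 75 Mb and 75 Mb to the end. The middle of 17q lies at 2.40 to 5.60 in the libraries and at 7.90 and 6.33 in the pooled lists.

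The change of density along the chromosome was steep. The 9 libraries together held 34 peaks from 40 to 46 Mb and 151 from 46 to 52 Mb. The deposited narrow list of BDNF+Dox over BDNF held 10 peaks in the first and 45 in the second of these stretches, and the deposited list over Naive 11 and 26. In bins of 5 Mb, the libraries together held 27 peaks at 40 to 45 Mb, 106 at 45 to 50 Mb, 182 at 50 to 55 Mb, between 149 and 181 in each bin from 55 to 75 Mb, and 63 at 75 to 80 Mb. On 17p the counts were 25, 36, 109, 39 and 39, so the bin from 10 to 15 Mb, with 23 protein-coding genes, stood above its neighbours.

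Bins rich in genes tended to be poor in peaks, with exceptions. The bin from 40 to 45 Mb held 182 protein-coding genes and 27 library peaks, whereas the bin from 65 to 70 Mb held 28 genes and 181 peaks. Against this order, the bin from 20 to 25 Mb held 11 genes and 39 peaks. The bin from 45 to 50 Mb held 82 genes and 106 peaks. Over the 17 bins the rank correlation (Spearman) of library peaks with protein-coding genes was -0.63 (Pearson -0.57), given as a description over neighbouring bins that share libraries and Input. The part from 45 to 75 Mb held 9.40 protein-coding genes per Mb, against 19.7 from 25 to 45 Mb, 18.7 from 75 Mb to the end, 15.0 on 17p and 6.67 on the other chromosomes. Its gene density was therefore the nearest of the 4 parts to that of the other chromosomes.

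**Figure D2:**
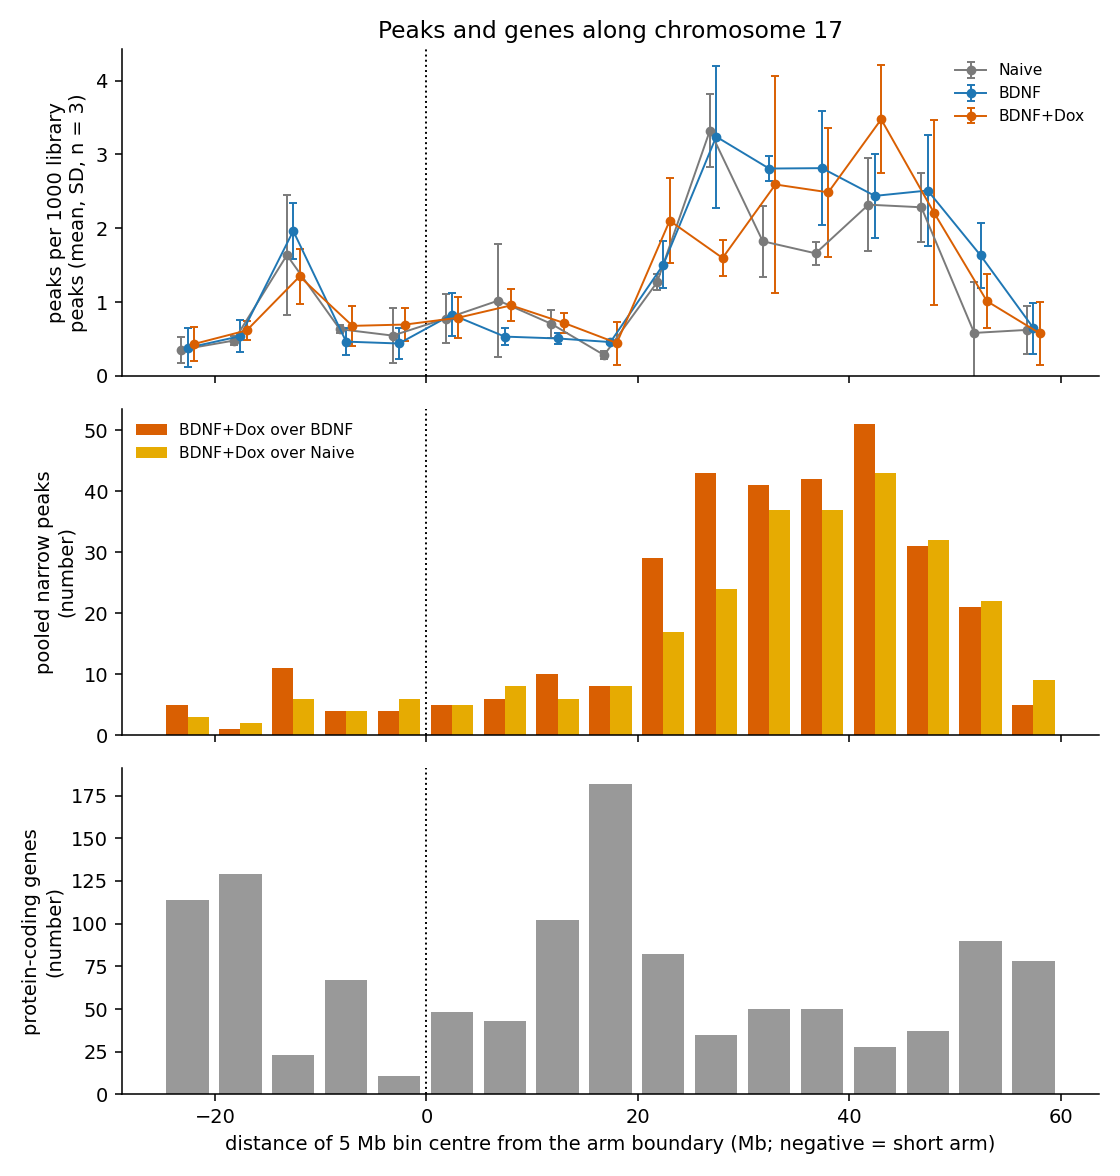
Chromosome 17 in 5 Mb bins by distance from the arm boundary: peaks per 1000 library peaks (mean and SD, n = 3 per group), number of peaks in the 2 deposited pooled narrow lists, and number of protein-coding genes. The libraries and both pooled lists are high from 20 to 50 Mb beyond the boundary on the long arm. Bins there hold 28 to 82 protein-coding genes, against 11 to 182 in the other bins.

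The local background under the peaks moved with the same stretch. This background, recovered from the deposited pileup and fold of each peak, comes from the Input for the libraries, and it cannot go below a minimum set by depth. Divided by that minimum, the median at peaks from 45 to 75 Mb was 1.43, 1.27 and 1.41 in Naive, 1.28, 1.27 and 1.27 in BDNF, and 1.35, 1.28 and 1.27 in BDNF+Dox. On 17p it was 1.02 ± 0.022 (SD over 9 libraries), on proximal 17q 1.02 ± 0.017, on distal 17q 1.11 ± 0.099 and on other chromosomes 1.07 ± 0.042. By whole chromosome, the library background ranked 1 on chromosome 7, 2 on chromosome 1 and 3 on chromosome 17. A raised background was therefore not particular to chromosome 17. Between 70.6% and 90.5% of the peaks from 45 to 75 Mb lay over 10% above the minimum, against 4.76% to 45.5% on 17p and 35.5% to 55.2% elsewhere. The background of the pooled lists comes from merged ChIP reads of BDNF or Naive instead of Input. It was also raised there, at 1.38 over BDNF and 1.24 over Naive, against 1.00 and 1.05 on 17p. Over the 17 bins the Spearman correlation of library peaks with the background ratio was 0.88 (Pearson 0.89), and of pooled peaks over BDNF 0.82 (0.88), again as a description. The highest bin ratio, 1.56, was that of 50 to 55 Mb, which also held the most library peaks. The part of this background in the number of peaks was not tested.

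**Figure D3:**
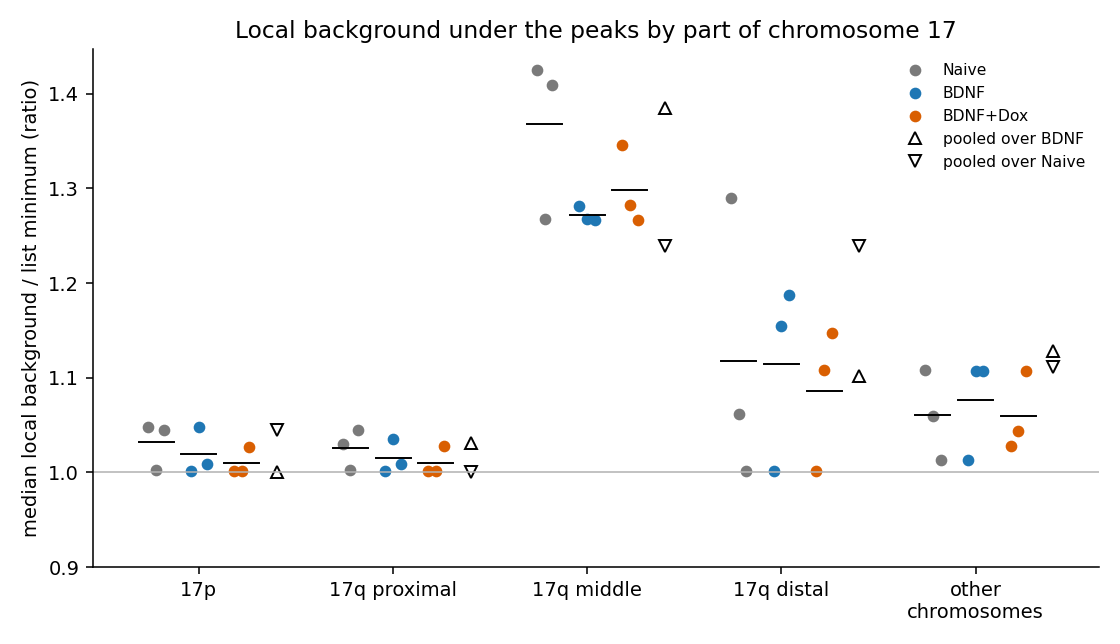
Median local background under the peaks divided by the lowest background of the same list, with one point per library, bars for group means (n = 3) and open triangles for the pooled narrow lists. The vertical axis starts at 0.9. The 9 libraries lie between 1.27 and 1.43 in the middle of 17q and between 1.00 and 1.05 on 17p.

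The comparison of groups by position found 1 of 17 bins past an unadjusted p of 0.05 in the exact permutation test on peaks per 1000, where 6.58% of 593 bins over all chromosomes did. That bin was 50 to 55 Mb, with 35 protein-coding genes, among them CA10 and KIF2B. Its peaks numbered 47, 17 and 25 in Naive, 14, 19 and 22 in BDNF, and 16, 13 and 9 in BDNF+Dox. Per 1000 peaks of each library this was 3.87, 2.91 and 3.19 in Naive, 2.29, 4.22 and 3.21 in BDNF, and 1.48, 1.88 and 1.43 in BDNF+Dox. The BDNF+Dox libraries lay below all 6 others, with means of 1.60 ± 0.248 against 3.24 ± 0.962 (BDNF) and 3.32 ± 0.495 (Naive; SD, n = 3). The exact permutation p was 0.0429 and 0.698 after adjustment over all bins, so the difference did not pass, and without single libraries the unadjusted p ran from 0.0179 to 0.121. After adjustment 0 of the 593 bins were called. In the same bin the deposited narrow lists held 43 peaks of BDNF+Dox over BDNF and 24 over Naive. These lists hold only places where BDNF+Dox exceeded the reference group, so their counts cannot show whether signal was lost. A loss of signal in BDNF+Dox was not tested.

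Within that bin lies a gene-poor interval of 2.74 Mb between CA10 and TOM1L1, chr17:52160024-54900851, with 1 protein-coding gene, the kinesin KIF2B. It was chosen after its values were seen and gets no test. It held 34, 10 and 19 peaks in Naive, 11, 10 and 14 in BDNF, and 11, 7 and 1 in BDNF+Dox. Per 1000 peaks the means were 2.31 ± 0.553, 2.02 ± 0.21 and 0.73 ± 0.495 (SD, n = 3). The BDNF+Dox libraries, at 1.02, 1.01 and 0.159 per 1000, lay below the lowest other library at 1.71. The deposited narrow lists, which hold gains only, had 24 peaks of BDNF+Dox over BDNF in this interval, or 2.44 per 1000 peaks of that list. Over Naive they held 12, or 1.52 per 1000. The lowest q of the library peaks on chromosome 17 also fell here, at chr17:54704806-54705026 in Naive replicate 1, with a fold of 6.00 and a q of 0.000721 in the authors' table, 196 kb from TOM1L1.

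More of the chromosome 17 peaks lay at protein-coding genes than elsewhere. The share in a gene or within 2 kb of one was 46.5%, 55.3% and 41.4% in Naive, 56.1%, 57.3% and 51.8% in BDNF, and 62.1%, 60.8% and 68.3% in BDNF+Dox. On other chromosomes it was between 37.3% and 44.7%. The difference, 14.8 ± 6.67 percentage points (SD, n = 9), was positive in 9 of 9 libraries (exact sign-flip permutation p = 0.00391, adjusted p = 0.0130). Genes themselves are more closely spaced on chromosome 17, as the densities above show, and this was not adjusted for. The share within 2 kb of an annotated start was 3.16% ± 1.53 on chromosome 17 (47 peaks in all) and 2.10% ± 0.274 on the other chromosomes for which the table holds starts.

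The gene share on chromosome 17 was ordered by group. The means were 47.8% ± 7.01 for Naive, 55.1% ± 2.87 for BDNF and 63.7% ± 4.00 for BDNF+Dox (SD, n = 3), and the lowest BDNF+Dox library, at 60.8%, lay above all 6 others. The exact permutation test of the 3 groups gave an unadjusted p of 0.0179, with 0.1 for BDNF+Dox against BDNF and against Naive, the smallest a pair of 3 allows. This comparison was added after the values were seen. Without BDNF+Dox replicate 3 the exact permutation p was 0.075. With equal numbers of peaks per library the BDNF+Dox share exceeded BDNF by 4.55 points instead of 8.64, and the groups overlapped, with BDNF up to 62.4% and BDNF+Dox from 59.6% (exact permutation p = 0.3 for this pair and 0.0179 for the 3 groups). Other chromosomes had the same order, 38.6% ± 1.24, 40.2% ± 1.81 and 43.1% ± 1.49 (exact permutation p = 0.0357), and the difference between chromosome 17 and the others gave an exact permutation p of 0.05, which did not pass.

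**Figure D4:**
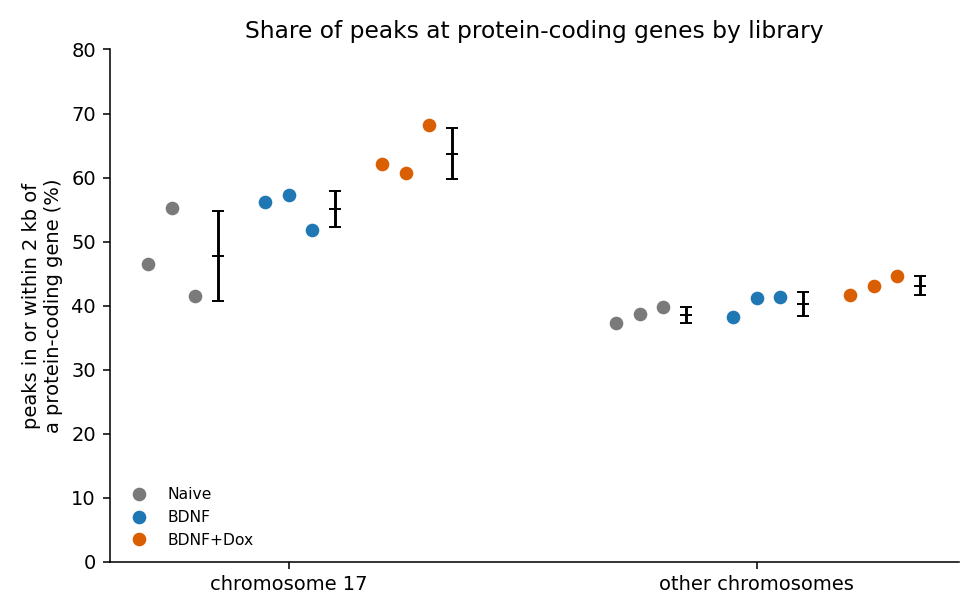
Percentage of library peaks in or within 2 kb of a protein-coding gene, one point per library with the group mean and SD (n = 3) at its right. On chromosome 17 the 3 BDNF+Dox libraries lie at 60.8% to 68.3%, above all other libraries.

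By gene, 304 of 1169 protein-coding genes on chromosome 17 (26.0%) had a peak in at least 1 library, against a background of 37.3% over all chromosomes. A peak in 7 or more libraries was found for 11 genes (0.941%), against 2.27%. Of these 11, all but ABCA5 were longer than 200 kb. Of the 35 genes over 200 kb, 33 (94.3%) had a peak in some library, against 97.4% over all chromosomes, and all 16 of those centred from 45 to 75 Mb did. Peaks were also scaled by gene length with 2 kb added on each side. On this scale those 16 held a median of 3.32 peaks per 100 kb over the 9 libraries together. The medians were 0.807 in 11 long genes of 17p, 1.53 in 5 of proximal 17q and 0.896 in 3 of distal 17q. RBFOX3, which encodes the neuronal nuclear antigen NeuN and spans 576 kb on distal 17q, held 1 library peak, or 0.172 per 100 kb. CEP112, a centrosomal protein gene of 557 kb in the middle, held 34, or 6.06 per 100 kb, the highest value of the 35 long genes. These 2 genes lie near the ends of the range. Some long genes of the middle had values near the distal ones, with 0.735 in LRRC37A2 and 1.11 in MSI2, against 0.94 in distal RPTOR.

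Among the 11 genes with a peak in 7 or more libraries, 2 had one in every library. CA10, a catalytically inactive carbonic anhydrase relative that binds neurexins, had 4, 1 and 2 peaks in Naive, 3, 3 and 3 in BDNF, and 2, 2 and 3 in BDNF+Dox (chr17:51630313-52160023). TANC2, a postsynaptic scaffold gene (chr17:62966235-63427703), had 1, 2 and 1 in Naive, 1, 1 and 3 in BDNF, and 2, 3 and 2 in BDNF+Dox. The groups overlapped in both genes. CEP112 had 7, 3 and 1 peaks in Naive, 0, 5 and 3 in BDNF, and 5, 4 and 6 in BDNF+Dox. BCAS3, a gene of cell migration named for its amplification in breast cancer, had 1, 3 and 1 in Naive, 2, 3 and 3 in BDNF, and 7, 0 and 2 in BDNF+Dox. PITPNC1, a phosphatidylinositol transfer protein, had peaks in 8 libraries with at most 3 in any. ANKFN1 ranged from 0 to 7 and had 0 in BDNF+Dox replicates 2 and 3.

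PRKCA, which encodes protein kinase C alpha, had 0, 2 and 1 peaks in Naive, 3, 1 and 1 in BDNF, and 1, 0 and 6 in BDNF+Dox. The spread in BDNF+Dox rested on replicate 3. The authors' deposited narrow tables held 8 PRKCA peaks over BDNF and 12 over Naive. MSI2, an RNA-binding regulator of progenitor cells, had between 0 and 2 peaks per library and 8 and 5 peaks in the deposited narrow tables over BDNF and over Naive. ABCA5, a lipid transporter of 82.8 kb, had 11.5 peaks per 100 kb over the libraries, with 2 kb on each side counted in its length. This was the most of the 45 chromosome 17 genes with at least 5 peaks. ABCA5 had 0 pooled peaks in any of the 4 lists. Rank in the libraries and in the pooled lists thus differed for these genes.

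**Figure D5:**
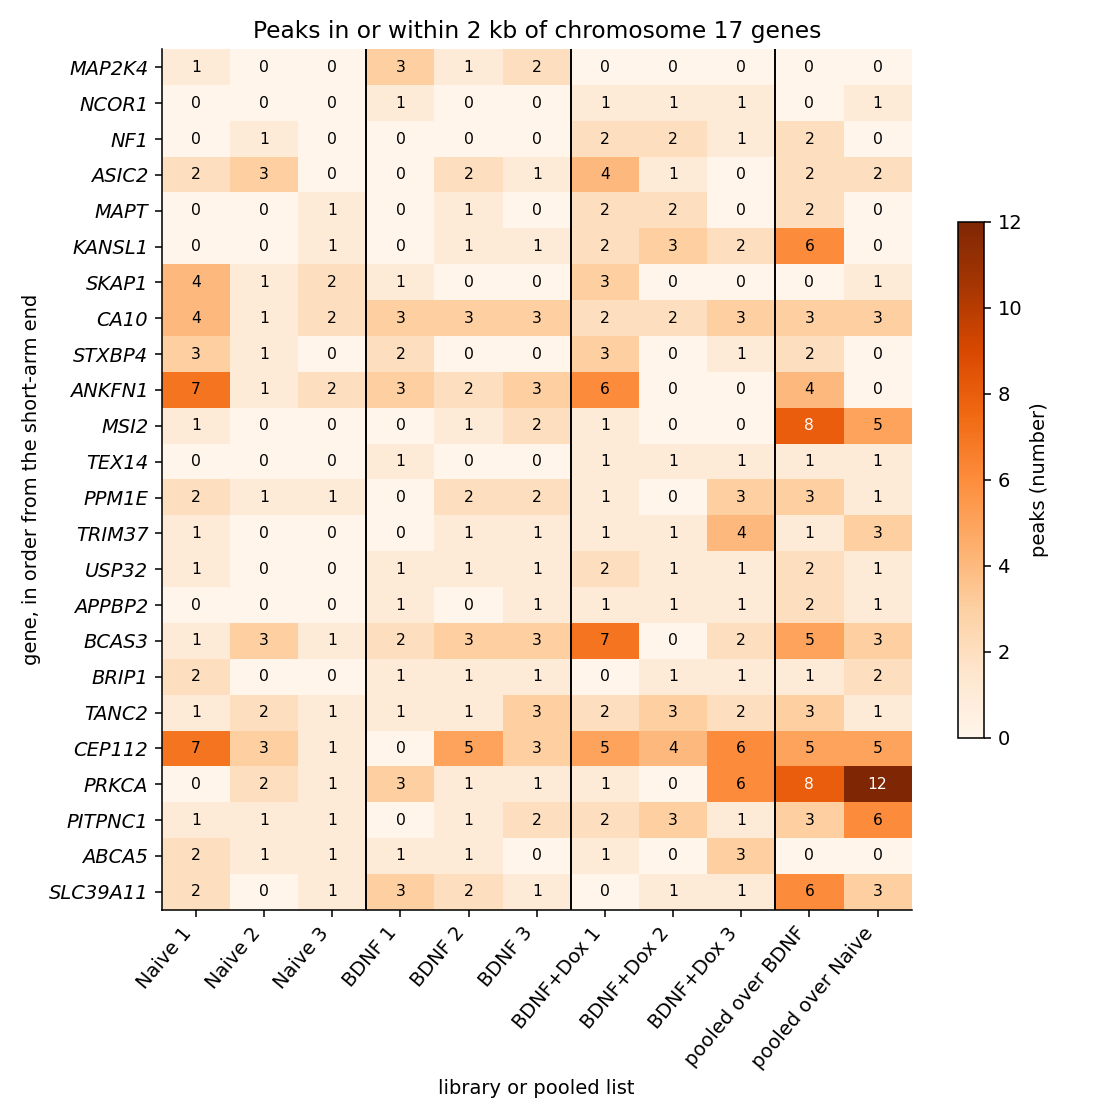
Number of peaks in or within 2 kb of 24 chromosome 17 genes (rows, in order along the chromosome) in the 9 libraries and the 2 deposited pooled narrow lists (columns). CA10 and TANC2 have at least 1 peak in all 9 libraries, MAP2K4 has 0 in BDNF+Dox and KANSL1 has 2 or 3 in each BDNF+Dox library.

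Few genes separated the groups. Peaks in all 3 BDNF+Dox and 0 of 3 BDNF libraries were found for NF1 and ABCA10, or 0.171% of the genes on chromosome 17 against 0.401% over all chromosomes. NF1, the neurofibromatosis tumour suppressor and a brake on RAS (chr17:31094977-31377675), had 0, 1 and 0 peaks in Naive, 0, 0 and 0 in BDNF, and 2, 2 and 1 in BDNF+Dox. ABCA10, a neighbour of ABCA5, had 1 peak in each BDNF+Dox library, 0 in BDNF and 1, 1 and 0 in Naive. The opposite pattern, all BDNF and no BDNF+Dox libraries, was found for MAP2K4, a kinase upstream of JNK (0.0855% against 0.0651%). MAP2K4 (chr17:12020877-12143828) had 1, 0 and 0 peaks in Naive, 3, 1 and 2 in BDNF, and 0, 0 and 0 in BDNF+Dox. NCOR1, a corepressor, TEX14, a gene of germ cell bridges, and APPBP2 had a peak in all BDNF+Dox and no Naive libraries (0.257% against 0.265%). In the remaining 3 directions chromosome 17 had 0 such genes, against 0.285% (Naive and not BDNF), 0.135% (Naive and not BDNF+Dox) and 0.0651% (BDNF and not Naive). With equal peak numbers per library 5 genes separated the groups, and 4 of them were among these 6, namely MAP2K4, NF1, APPBP2 and TEX14. With a −log10 p of 3 or more 6 genes did, of which the same 4 were shared. The list thus changed with the setting.

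The exact permutation test on peaks per 1000, run for 2627 genes with peaks in 3 or more libraries, called 104 (3.96%) at an unadjusted p under 0.05 and 0 after adjustment. On chromosome 17 it called 2 of 83 (2.41%), USP32 and MAP2K4. USP32, a deubiquitinase, had 1, 0 and 0 peaks in Naive, 1, 1 and 1 in BDNF, and 2, 1 and 1 in BDNF+Dox (exact permutation p = 0.0214). For MAP2K4 it was 0.0357, and the adjusted p was 0.996 for both. KANSL1, a subunit of a histone acetyltransferase complex next to MAPT, had 0, 0 and 1 peaks in Naive, 0, 1 and 1 in BDNF, and 2, 3 and 2 in BDNF+Dox. By raw number its 3 BDNF+Dox libraries lay above the 6 others, but not per 1000 peaks, where the exact permutation p was 0.0714 and the adjusted p 0.996. The deposited narrow tables held 6 KANSL1 peaks over BDNF and 0 over Naive. MAPT, which encodes tau, had 0, 0 and 1 peaks in Naive, 0, 1 and 0 in BDNF, and 2, 2 and 0 in BDNF+Dox.

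Gene groups on chromosome 17 are given by their counts, beside 26.0% of all 1169 genes there with a peak in a library, 83 of the 1169 with one in 3 or more (13.2% of genes over all chromosomes), a median of 0 libraries per gene and a median gene length of 15.6 kb. Of 41 genes listed under neuronal signalling and synapse, 14 had a peak in a library, 7 of them in 3 or more. The median of the 41 was 0 libraries at a median length of 38.9 kb. Besides CA10 and TANC2 the list included ASIC2, a proton-gated channel with 13 peaks in 6 libraries, and SDK2, a synaptic adhesion gene, with 7 in 5. It also included STXBP4, a syntaxin-binding protein gene not particular to neurons, with 10 in 5. Of 16 tumour suppressors and oncogenes 12 had a library peak, with a median of 1.5 libraries and 70.6 kb. Among them were BRIP1, a DNA repair helicase, with 7 peaks in 6 libraries, and SPOP, a ubiquitin ligase adaptor, with 4 in 3. Of 12 genes of interest in neuroblastoma, 4 had a library peak, PRKCA, NF1, PPM1D and BIRC5. Of 9 RNA-binding genes 6 did, with TNRC6C, a microRNA silencing factor, at 7 peaks in 5 libraries. All 5 lipid transporters of the ABCA cluster had one. DNAH17, DNAH2 and DNAH9 were the 3 of 4 axonemal dyneins with one.

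Clustered gene families differed in how many members held a peak. The 10 HOXB genes, at a median length of 3.37 kb, had 0 in any library and 0 in both pooled narrow lists. Of 16 type I keratins in the list KRT12 had a library peak, and outside the list KRT222, KRT33A and KRT40 did. Of 14 CC chemokines CCL3 had one. Of 10 olfactory receptors of 17p13, 3 had one, and of 7 myosin heavy chain genes 5, led by MYH2 with 3 peaks in 3 libraries. The 5 genes of the BAF complex, arginine methylation and histones on this chromosome (SMARCE1, SMARCD2, COPRS, JMJD6 and H3-3B) had 0 library peaks. Among deposited narrow peaks, 1 of these 5 had a peak over BDNF, H3-3B, and 2 over Naive, H3-3B and JMJD6. At these gene lengths, a count of 0 among sparse peaks does not show that the mark is absent.

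Peaks seldom returned to the same place. Merging library peaks that overlap by at least 1 bp gave 1409 regions on chromosome 17, of which 1362 had a peak in 1 library, 45 in 2 and 2 in 3. The 47 regions with 2 or more libraries made 3.34%, against 2.37% over all chromosomes, and the 2 regions with 3 made 0.142% against 0.137%. On 17q 45 of 1163 regions recurred (3.87%) and on 17p 2 of 246 (0.813%). Of the 45 pairs, 12 joined libraries of 1 group and 33 libraries of different groups, so 26.7% lay within a group, against 23.9% over all chromosomes. With an overlap of at least 50% of the shorter peak 31 regions recurred, and 30 with a −log10 p of 3 or more.

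The first region with 3 libraries, chr17:61437095-61437463, lay outside any protein-coding gene and 15.0 kb from TBX4, a limb and lung transcription factor gene. It had a peak in Naive replicate 2 (authors' fold 3.41), BDNF+Dox replicate 2 (5.46, q = 0.0228) and BDNF+Dox replicate 3 (3.54). The second, chr17:61703561-61703983 in BRIP1, had a peak in BDNF replicate 1 (3.32), BDNF replicate 2 (3.67) and BDNF+Dox replicate 3 (3.54), each with a q of 1. Neither overlapped a pooled narrow peak. Pairs within BDNF+Dox included a MAPT region, chr17:45969740-45969937, with folds of 3.93 and 3.90 in replicates 1 and 2. A NCOR1 region at chr17:16139896-16140428, an APPBP2 region at chr17:60452073-60452400 and a BCAS3 region at chr17:60712958-60713187 each had peaks in replicates 1 and 3. The other groups had such pairs too. Those within BDNF lay in PCTP, MRC2 and VCF1 and 26.3 kb from YPEL2. Those within Naive lay in CEP112 and 2.7 kb from CA10.

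Chromosome 17 took a larger share of the pooled lists than of the libraries. The deposited narrow list of BDNF+Dox over BDNF held 317 of its 9850 peaks on chromosomes 1 to 22 and X there, 3.22% (95% Wilson interval 2.89 to 3.59, counting error only), with 25 on 17p and 292 on 17q. The list over Naive held 269 of 7882, 3.41% (3.03 to 3.84), with 21 and 248. The libraries had between 1.90% and 2.65%. Both pooled lists share the BDNF+Dox reads, and each is 1 comparison of merged reads without a spread between replicates. The calls are also unlike in depth and control. The pooled lists used 54723304 merged reads over ChIP reads, and each library at most 18928589 over Input. By peaks per Mb chromosome 17 had rank 4 of 23 chromosomes in both pooled narrow lists and rank 17 in the libraries. Ranks 1, 2 and 3 in both pooled narrow lists went to chromosomes 7, 1 and 2. From 45 to 75 Mb the list over BDNF held 7.90 peaks per Mb, against 1.09 on 17p, 1.53 on proximal 17q, 2.89 on distal 17q and 3.38 on other chromosomes. The list over Naive held 6.33, against 0.913, 1.42, 3.44 and 2.70. Without this stretch chromosome 17 took 0.832% and 1.03% of the lists. The stretch itself took 2.41% of each narrow list and 1.42% ± 0.261 of the libraries (SD, n = 9). The other parts took on average 0.373% (17p), 0.267% (proximal 17q) and 0.169% (distal 17q) of the libraries.

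Among the strongest pooled peaks were ones inside MAPT and just outside H3-3B, CEP112 and UTS2R. In the authors' deposited table over BDNF, 3 of 317 peaks had a q of 0.05 or less (0.946%, against 0.822% over all chromosomes). The first, chr17:62255671-62255876, had a fold of 4.15 and a q of 0.0212, lay outside protein-coding genes 114 kb from EFCAB3, and met 0 BDNF+Dox library peaks. The second, chr17:45969740-45969944 inside MAPT, had a fold of 3.86 and a q of 0.0347 in that deposited table and overlapped peaks of 2 BDNF+Dox libraries. The merged reads include those of the BDNF+Dox libraries, so such overlaps are not independent. The third, chr17:75780330-75780721, had a fold of 3.93 and a q of 0.0455 in the deposited table, was centred 0.746 kb upstream of the start of H3-3B, which encodes the replacement histone H3.3, and met 0 library peaks. At the same H3-3B position the deposited table over Naive gave a fold of 2.94 and a q of 0.79.

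In the authors' deposited table over Naive, 2 of 269 peaks had a q of 0.05 or less (0.743%, against 1.01%). The peak at chr17:66192633-66192815 had a fold of 4.17 and a q of 0.0131 in that deposited table and was centred 0.591 kb upstream of a CEP112 start. The peak at chr17:82369662-82369860 beside UTS2R, the urotensin receptor gene, had a fold of 4.13 and a q of 0.0144 in the deposited table and met a peak of 1 BDNF+Dox library. The next peaks by q included one within 2 kb of NGFR, the p75 neurotrophin receptor gene that also binds BDNF, at chr17:49494258-49494573. Its q in the deposited tables was 0.0757 over BDNF and 0.0593 over Naive, with a fold of 3.92 and 3.93, and NGFR had 0 peaks in all 9 libraries. A BRCA1 peak at chr17:43145946-43146117 had a q of 0.0593 over Naive in the deposited table. SHISA6, a glutamate receptor auxiliary subunit gene, had a q of 0.0757 over BDNF in the deposited table.

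Further genes with the lowest q in the deposited table over BDNF were MPRIP, CFAP97D1 and B4GALNT2, each at 0.221, SPATA22 and ASPA, which share a peak, at 0.252, BCAS3 at 0.286 and PRKCA at 0.291. Over Naive they were PRKCA at 0.0855, EFCAB3 and PITPNC1 at 0.141, and SPECC1, THRA and YPEL2 at 0.214 in the deposited table. The PRKCA peaks, at chr17:66327719-66327960 over BDNF and chr17:66327692-66327956 over Naive, lay at nearly the same place in both deposited tables, which share the BDNF+Dox reads.

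By gene, 112 of 1169 (9.58%) had a narrow peak over BDNF and 99 (8.47%) over Naive, against 14.7% and 13.1% over all chromosomes. Of the 317 peaks over BDNF, 51 (16.1%) overlapped a BDNF+Dox library peak, against 17.9% over all chromosomes, and of the 269 over Naive, 40 (14.9%) against 18.3%. Overlap with a peak of the reference group's libraries was 0 in both, against 0.0102% and 0.0254%. Neither overlap is independent evidence. The pooled calls reuse the reads of the BDNF+Dox libraries. They also require these to exceed the reference group's own reads, so a near absence of reference peaks was built in. A −log10 p of 5 or more was reached by 36 peaks in each deposited list, 11.4% over BDNF and 13.4% over Naive, against 11.8% in both. The median fold in the deposited tables was 2.70 on chromosome 17 and 2.77 elsewhere over BDNF, and 2.74 and 2.78 over Naive.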

How the data were processed

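H4R3me2s ChIP-seq peaks of 9 SH-SY5Y libraries (3 Naive, 3 BDNF, 3 BDNF+Dox) and 1 Input were used. The labels gave groups and replicate numbers. The submitters' processing notes name cutadapt 1.1, Trimmomatic 0.32, Bowtie (version not stated), GRCh38 and MACS2 2.2.7.1. Library peaks were called over the Input at a p threshold of 0.01 with duplicates removed, per the file headers, and merged BDNF+Dox reads were called over merged BDNF or Naive reads as narrow and broad peaks. In the deposited files each peak has a pileup height (signal), a −log10 p-value, a −log10 q-value and a fold enrichment (ratio over local background), all the authors' own. The file headers say that q-values would not be calculated, but the deposited column holds values, used as given. Folds and q were compared only within a list. Peak lists hold no reads outside peaks, so single peaks carry no interval.

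Computed here with Python 3.11.15, numpy 2.4.6, pandas 2.3.3 and scipy 1.17.1: local background as (pileup + 1) / fold − 1, whose lowest value in each list lay within 0.145% of that expected from the depth in the file headers. Density used the length of 1 Mb bins with any gene or peak (23 on 17p, 58 on 17q, 2821 elsewhere). Genes were RefSeq spans with 2 kb on each side, without exons, so exons and introns were not told apart. Overlapping genes share peaks, and near-identical copies around KANSL1 and the LRRC37A genes make peaks there uncertain. Bins and genes were tested as peaks per 1000 peaks of the library. Groups were compared by exact permutation of the F ratio over 1680 assignments (smallest p 0.00357), pairs by exact permutation (smallest p 0.1), and differences within libraries by exact sign flips over 512 assignments (smallest p 0.00391), all two-sided, with Benjamini-Hochberg adjustment over 10 tests, all bins or all genes. The tests of bins and the sign flips were checked on simulated data. The simulated bins had counting error alone between replicates, and counts as low as those of most genes were not simulated separately. Named genes were the 10 with the smallest q in each pooled narrow list, the 10 with a peak in most libraries, genes with a region in 3 libraries, genes separating groups, up to 3 per gene list, the leading gene per 5 Mb bin, and 13 fixed genes. Some results of this rule are not reported here. EFCAB3, TLK2, KANSL1, RBFOX3, LRRC37A2, RPTOR, USP32 and the non-coding genes were chosen after their values were seen. The members and lists were chosen with earlier results of these data known. No genome sequence was used.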

Additional observations from a re-analysis of the deposited data

How the results depend on the processing

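The surplus of 17q over 17p, the low density of 17p and the higher gene share of chromosome 17 kept their direction and passed in the alternatives run, apart from 17q up to 45 Mb, where the log2 ratio to 17p was -0.24 and that to other chromosomes -1.35 (exact permutation adjusted p = 0.0130). With a −log10 p of 3 or more the 17q ratio to other chromosomes was -0.17 (exact permutation adjusted p = 0.0195). Differences of BDNF+Dox from BDNF that did not pass also changed sign. With equal peak numbers the 17q number ratio was 0.987 and the difference in share 0.0814 points, which was 0.0623 points without 50 to 55 Mb. Leaving out single libraries gave ratios of 1.16 to 1.42 for the chromosome, 1.14 to 1.56 for 17p and 1.16 to 1.43 for 17q, share differences of -0.287 to 0.0611 (above 0 without BDNF+Dox replicate 1), and arm-ratio differences of -0.31 to 0.057 (0.044 without BDNF replicate 3 and 0.057 without BDNF+Dox replicate 1). It also gave 0 to 3 bins past p = 0.05 by exact permutation, 34 to 39 recurring regions, and gene share differences between BDNF+Dox and BDNF of 6.36 to 10.1 points. With a −log10 p of 3 or more there were 2 such bins and 30 recurring regions, and 31 regions with an overlap of 50%. The pooled share over BDNF was 2.85% for broad calls, and over Naive 3.85% at a −log10 p of 5 or more. Without 45 to 75 Mb the shares were 0.832% and 1.03%. The cause of these changes was not tested.

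The replicate numbers did not pair the libraries: correlations of same-numbered libraries ran from -0.226 to 0.105 over 9 pairs, and 2 of 9 libraries correlated best with their own number. The replicate block permutes labels only within a replicate number, so it cannot change the values. These were 1.29 (chromosome), 1.37 (17p), 1.28 (17q), -0.0988 points (share), -0.0963 (arm ratio) and 8.64 points (gene share), and no call changed. Few library peaks reached a q of 0.05 or less, 0.412% on chromosome 17 and 0.29% over all chromosomes, which limits every count of genes and regions.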
